A study of Mus musculus with 2 samples.

Results

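The genes described here are 8 parts of the tumour necrosis factor (TNF) and lymphotoxin system, chosen by symbol and not by any measured value: the ligand genes Tnf, Lta and Ltb, the receptor genes Tnfrsf1a, Tnfrsf1b and Ltbr, and the adaptor genes Tradd and Traf2. All 8 were among the 32285 genes counted, and each had at least 1 unique molecular identifier (UMI, a tag that counts 1 captured RNA molecule) in both libraries. The study profiled immune cells that had entered the colon of colitic C57BL/6 mice, by droplet single-cell RNA sequencing of transcript 3′ ends, in 1 library labelled WT and 1 library labelled CKO. The series title concerns loss of RPA1, a DNA-binding protein of replication and repair, in T cells. The labels do not give the cells in which the CKO deletes, the deleted exons, the way colitis was induced, the ages or the number of mice in a library, and both libraries come from colitis, so none without inflammation was analysed here. With 1 library per label there is no spread between samples and no test: every interval below is an exact 95% interval of counting error only, and no difference has a replicate check.

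TNF is made as a membrane trimer and shed, and it binds TNFR1 (Tnfrsf1a), which carries a death domain, and TNFR2 (Tnfrsf1b), which does not. TNFR1 recruits TRADD and, through it, TRAF2 and RIPK1, a complex that activates NF-kB and can instead start apoptosis through caspase-8 or necroptosis through RIPK3 and MLKL. Lymphotoxin-alpha (Lta) is secreted as a trimer that also binds both TNF receptors, or joins lymphotoxin-beta (Ltb) on the membrane of lymphocytes to bind the lymphotoxin beta receptor (Ltbr) of stromal, epithelial and myeloid cells, which signals through the noncanonical NF-kB pathway and maintains lymphoid tissue of the gut.

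The ligand genes lie side by side on mouse chromosome 17 of the mm10 build, Ltb on the plus strand at 35194439 to 35196320, Tnf on the minus strand at 35199381 to 35202007 and Lta on the minus strand at 35203165 to 35205351. Between Tnf and Lta lie 1157 bases, and between Ltb and Tnf 3060 bases. On chromosome 6, Ltbr (125306571 to 125313885, minus strand) and Tnfrsf1a (125349362 to 125362484, plus strand) are 35476 bases apart. The other members are alone: Tnfrsf1b on chromosome 4 (145213463 to 145246870), Tradd on chromosome 8 (105258286 to 105264609) and Traf2 on chromosome 2 (25517982 to 25546940), all on the minus strand. The promoters of the ligand genes are shown because these neighbours were read in different cells, as given below. They are the RefSeq sequences of GRCm38.p6 upstream of the annotated start, 5′ to 3′ on the strand of the gene, at chr17:35202008-35202257 for Tnf, chr17:35205352-35205601 for Lta and chr17:35194257-35194438 for Ltb. Capitals mark every match, on either strand, to 5 motifs. These are the core of NFAT sites, GGAAA, and the core of ETS sites, which is spelled GGAAG, the TATA box of core promoters with the letters TATAAA, the AP-1 motif of Fos and Jun dimers written as TGANTCA, and the 10-base NF-kB consensus.
Tnf: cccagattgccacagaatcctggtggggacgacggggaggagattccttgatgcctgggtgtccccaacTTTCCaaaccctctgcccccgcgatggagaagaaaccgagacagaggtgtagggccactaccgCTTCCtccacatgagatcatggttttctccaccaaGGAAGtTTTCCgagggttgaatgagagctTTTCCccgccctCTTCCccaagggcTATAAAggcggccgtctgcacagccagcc
Lta: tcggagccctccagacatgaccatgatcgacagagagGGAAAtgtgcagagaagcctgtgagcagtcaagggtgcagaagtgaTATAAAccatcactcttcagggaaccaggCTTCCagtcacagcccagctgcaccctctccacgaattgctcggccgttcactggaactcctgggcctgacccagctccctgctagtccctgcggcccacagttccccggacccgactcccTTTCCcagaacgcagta
Ltb: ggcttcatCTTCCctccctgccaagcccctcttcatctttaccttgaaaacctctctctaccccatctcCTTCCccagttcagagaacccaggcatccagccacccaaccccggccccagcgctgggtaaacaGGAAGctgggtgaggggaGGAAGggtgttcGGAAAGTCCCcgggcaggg
The Tnf window held 3 NFAT cores, 3 ETS cores and 1 TATA box, the last 29 to 24 bases before the start, and no match to the NF-kB consensus or the AP-1 motif. In the Lta window there were 2 NFAT cores, 1 ETS core and 1 TATA box, which lay 167 to 162 bases before the start. Ltb had no TATA box, 4 ETS cores, and 1 NF-kB consensus, which overlaps an NFAT core and lies 87 to 78 bases before the RefSeq start. The printed Ltb window stops 68 bases short of that start, because the mm10 gene start given above lies there. Among 32851 promoters of 250 bases, 7.25% held the NF-kB consensus, 55.6% an NFAT core, 64.1% an ETS core, 6.75% the AP-1 motif and 12.4% a TATA box, so both cores are common. A match is a string of letters and was not tested as a bound site. A window without a match says only that these letters are not in it.

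The libraries held 2972 (WT) and 11311 (CKO) cell barcodes with 18627050 and 57740083 UMIs, and after filtering 2924 and 10942 cells with medians of 4136 and 3333.5 UMIs. They shared 6 barcodes. Clusters gave 13 classes named from marker genes, and 9 of them had at least 20 cells in each library: T-like (367 and 608 cells), B-like (1133 and 4997), plasma-like (206 and 475), NK-like (24 and 230), ILC2-like (102 and 271), ILC3-like (33 and 104), neutrophil-like (182 and 1806), monocyte- and macrophage-like (22 and 729) and dendritic cell-like (27 and 334). Clusters with genes of several lineages, called mixed, held 137 WT and 551 CKO cells. A further 672 WT cells (23.0%) and 703 CKO cells (6.42%) stayed unnamed, so the named classes do not cover the libraries alike. Levels are given as CPM, the UMIs of a gene per 1000000 UMIs of its class and library, and ratios as CKO over WT. In T-like cells the level of Rpa1 was 35.8 (68 UMIs) in WT and 55.2 (141 UMIs) in CKO, so the transcript was higher in the library labelled CKO. A 3′ tag outside the deleted part would check nothing, and the deleted part is not given in the labels. Transcripts of other cell types within a class differed between the libraries: the neutrophil gene S100a8 was read at 12.7 and 61.8 in T-like, 12.5 and 81.8 in B-like, 3.67 and 32.9 in plasma-like and 5.34 and 110.5 CPM in ILC2-like cells, and all 13 neutrophil markers were higher in CKO in each of T-like, B-like and plasma-like cells. The immunoglobulin gene Igkc went the other way in T-like cells, at 3410 and 868. Their part in the values below was not tested.

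Among the 9 classes compared, Tnf was highest in neutrophil-like and in monocyte- and macrophage-like cells in both libraries. Over all retained cells it was read at 19.7 CPM (365 UMIs) in WT and 124 (6887 UMIs) in CKO, 6.29-fold higher in CKO (log2 ratio 2.65, interval 2.50 to 2.81). Neutrophil-like cells made up 6.22% of WT cells and 16.5% of CKO cells, and monocyte- and macrophage-like cells 0.752% and 6.66%. Within classes the differences were smaller than over the whole libraries: neutrophil-like cells had 279.8 (109 UMIs) in WT and 436 (2292 UMIs) in CKO, a log2 ratio of 0.64 (0.36 to 0.93). Monocyte- and macrophage-like cells had 371 (75 UMIs) and 433 (2661 UMIs), a log2 ratio of 0.22 (-0.11 to 0.57). Of those 75 WT UMIs, 45 came from 1 cell, and without the cell with most UMIs in each library the ratio was 1.43, so the value for this class rests on that cell. Dendritic cell-like cells had 17.4 (5 UMIs) and 72.5 (225 UMIs), a log2 ratio of 2.06 (0.81 to 3.69). In the same cells the 13 neutrophil markers summed to 1683 and 3743 (12 of 13 higher), S100a8 was 227 and 851, and 1 of the 3 clusters had no WT cell and 48 CKO cells at 38.0. Their part in the Tnf value was not tested. The neutrophil-like ratio was larger under other weightings, 1.03 as a mean over cells and 0.96 with clusters weighted alike.

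**Figure D1:**
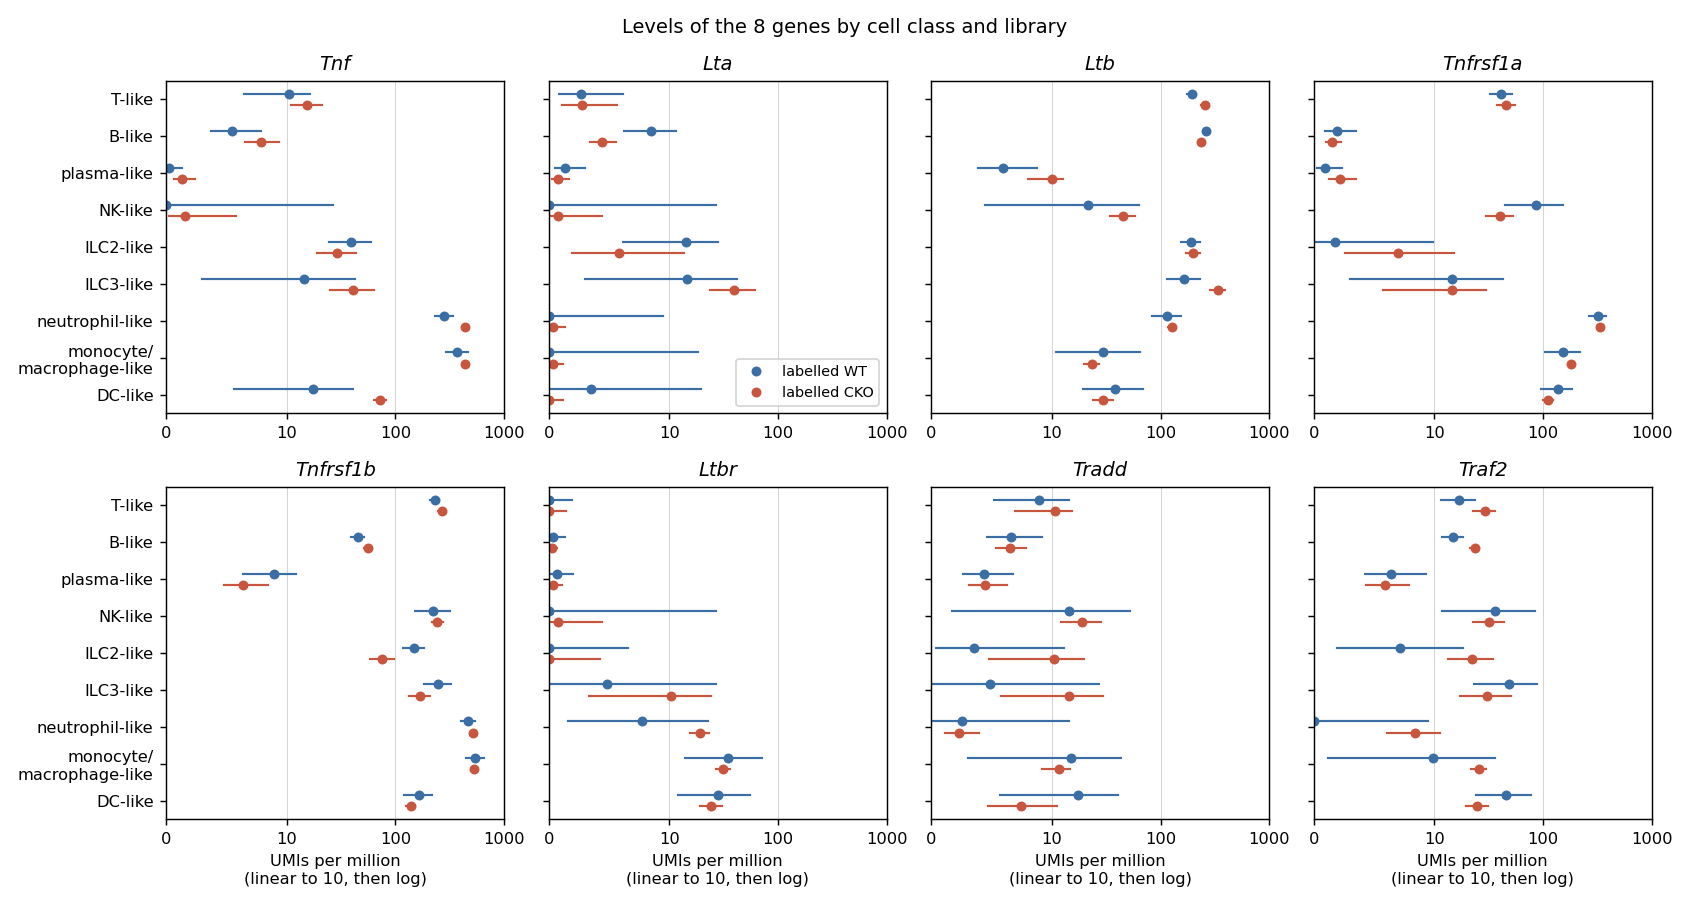
Level of each gene in CPM of the class (axis linear to 10, then logarithmic) in 9 cell classes, 1 point per library with its exact 95% counting interval. Tnf sits highest in monocyte- and macrophage-like and neutrophil-like cells of both libraries. Ltb sits highest in B-like, T-like, ILC2-like and ILC3-like cells, and Ltbr is at 0 in T-like cells of both libraries.

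Clusters within a myeloid class differed widely in Tnf. In the neutrophil-like cluster led by Hcar2 and Ccl3 it was 568 in WT (60 cells, 76 UMIs) and 1133 in CKO (463 cells, 1185 UMIs), a log2 ratio of 0.997 (0.66 to 1.35). In the neutrophil-like cluster led by Spp1 and Hcar2 it was 118 (87 cells) and 614 (120 cells), a log2 ratio of 2.39 (1.72 to 3.12). The largest neutrophil-like cluster of the CKO library had nearly the same level in both, 182 (24 cells) and 199.7 (517 cells), a log2 ratio of 0.13. The largest neutrophil-like cluster of the WT library was the one led by Spp1 and Hcar2, so the mix within the class differed. The cluster led by Ngp, a gene of a neutrophil granule protein, had 500 CKO cells, no WT cell and 209 CPM. Among monocyte- and macrophage-like clusters, the one led by Nos2, the inducible nitric oxide synthase, had 282 CKO cells at 700.02 against 8 WT cells at 176. The largest cluster of this class, led by Lyz2 and Chil3 (12 WT and 344 CKO cells), held the WT cell with 45 Tnf UMIs. Over the whole class the log2 ratio was 0.22.

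**Figure D2:**
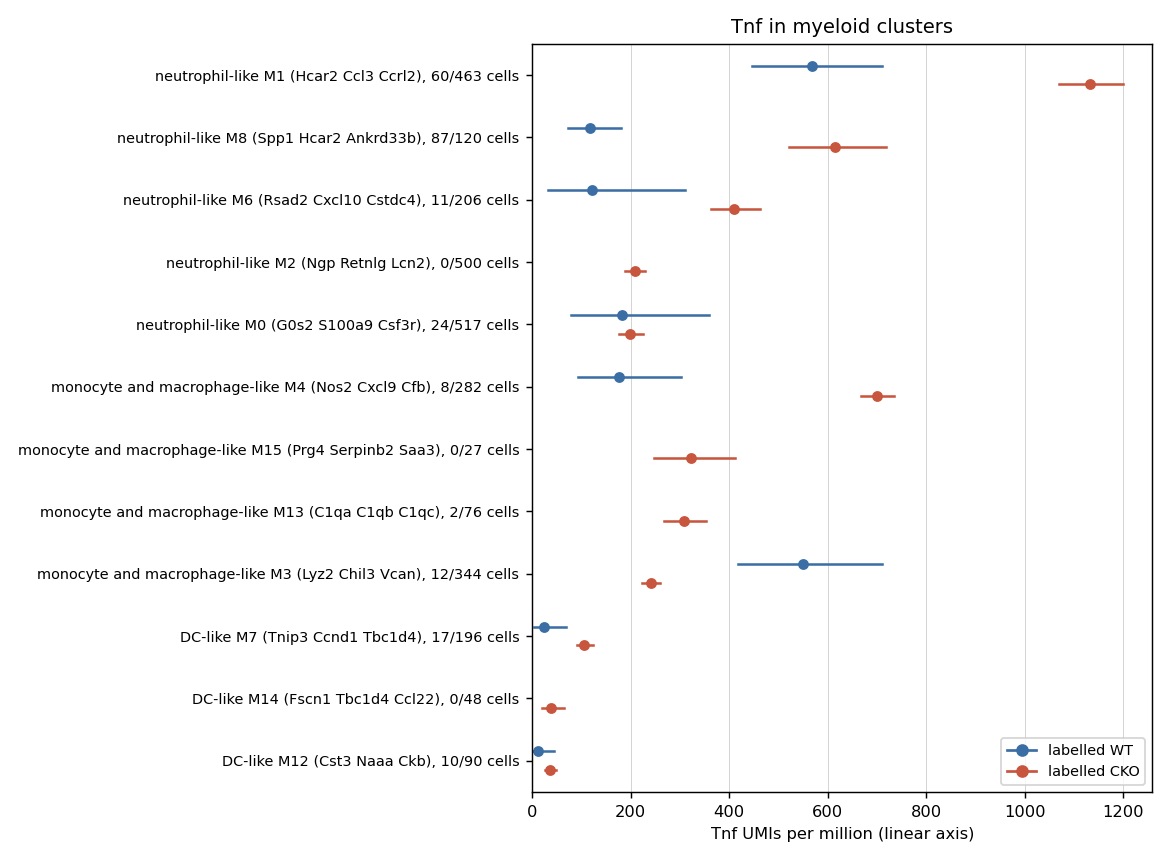
Tnf in CPM of the cluster in each myeloid cluster of a named class with at least 20 cells over both libraries. Mixed and unnamed clusters are not drawn. Lines are exact 95% counting intervals with 1 colour per library (libraries with fewer than 5 cells in a cluster are not drawn). The clusters of 1 class differ from each other, and the Hcar2 Ccl3 cluster is at 568 in WT and 1133 in CKO.

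In the WT library, 1 monocyte- and macrophage-like cell held 45 of 365 Tnf UMIs (12.3%), and 10 cells held 31.8%. In the CKO library the leading cell held 84 of 6887, and 10 cells held 7.87%. Because 10 cells are a larger part of 2924 WT cells than of 10942 CKO cells, these shares were not compared between libraries. After each cell was thinned to 1000 UMIs, 17.5% of WT and 25.8% of CKO neutrophil-like cells had a Tnf UMI, against 25.3% and 43.6% unthinned. For monocyte- and macrophage-like cells the thinned shares went the other way from the level, 36.4% in WT and 24.8% in CKO, so no order was read from them. At the low end after thinning, plasma-like cells were at 0% in WT and 0.211% in CKO. NK-like cells were at 0% in both (24 and 226 cells), and ILC3-like cells at 0% in WT (32 cells).

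T-like cells had little Tnf, 10.5 in WT (20 UMIs) and 15.3 CPM in CKO (39 UMIs), and the interval of the log2 ratio of 0.53 ran from -0.28 to 1.39. The thinned share of T-like cells with a Tnf UMI was 1.11% and 2.02%. In the CD4 T-like cluster, Tnf had 2 UMIs in WT (10.6 CPM) and 20 in CKO (35.3), and in the gamma-delta T-like cluster it had 28.0 in WT and 16.7 in CKO. B-like cells had 5.49 (29 UMIs) and 7.84 (130 UMIs), a log2 ratio of 0.52 (-0.07 to 1.15), and within them the cluster led by the activation genes Egr3 and Myc had 11.7 and 23.0. ILC2-like cells had 39.1 (22 UMIs) and 29.1 (25 UMIs), and their interval overlapped that of T-like cells in CKO. ILC3-like cells had 14.5 (3 UMIs) and 41.1 (20 UMIs), a log2 ratio of 1.501 (-0.25 to 3.90), and their interval overlapped that of T-like cells in WT. NK-like cells had 0 UMIs in WT and 2 in CKO (0 and 1.59 CPM). Of all Tnf UMIs, T-like cells held 5.48% in WT and 0.566% in CKO, whereas neutrophil-like cells held 29.9% and 33.3%, monocyte- and macrophage-like cells 20.5% and 38.6%, and clusters with genes of several lineages 20.8% and 19.1%.

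**Figure D3:**
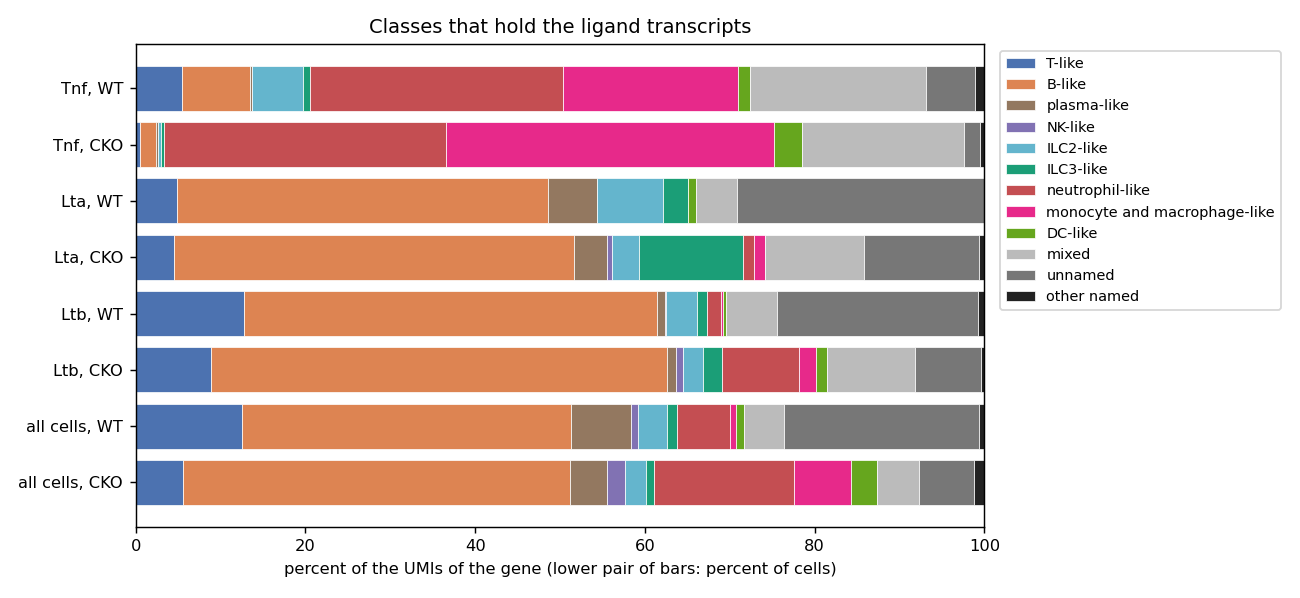
Percent of the UMIs of Tnf, Lta and Ltb that each class holds, 1 stacked bar per gene and library, with the percent of cells in each class in the lower pair of bars. Neutrophil-like cells hold 29.9% (WT) and 33.3% (CKO) of Tnf UMIs. Monocyte- and macrophage-like cells hold 20.5% and 38.6%, and 1 such cell holds 12.3% of the WT Tnf UMIs. B-like cells hold 43.7% (WT) and 47.1% (CKO) of Lta UMIs. Unnamed cells hold 29.1% (WT) and 13.5% (CKO) of Lta UMIs, and 23.7% and 7.75% of Ltb UMIs.

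Lta, by contrast, was a lymphoid and B lineage transcript and was low everywhere. Over all retained cells it was read at 5.55 CPM (103 UMIs) in WT and 2.78 (155 UMIs) in CKO, a log2 ratio of -0.996 (-1.36 to -0.62). B-like cells had 8.51 (45 UMIs) in WT and 4.40 (73 UMIs) in CKO, a log2 ratio of -0.95 (-1.51 to -0.38). Of the 45 WT UMIs, 11 came from a germinal centre B-like cluster led by Rgs13, which had 34 WT cells and 2 CKO cells, and without that cluster the ratio was -0.64. With clusters weighted alike it was -0.47. T-like cells had 5 and 7 Lta UMIs (2.64 and 2.74 CPM), too few to read a ratio. ILC3-like cells had 14.5 (3 UMIs) and 39.0 (19 UMIs), the reverse direction, with an interval of the log2 ratio from -0.34 to 3.83; thinned to 1000 UMIs per cell, that ratio was -0.015. Neutrophil-like cells had 0 Lta UMIs in WT and 2 in CKO, and dendritic cell-like cells 1 and 0.

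Ltb was highest in B-like, T-like, ILC2-like and ILC3-like cells. B-like cells had 263 (1392 UMIs) in WT and 236 (3919 UMIs) in CKO, a log2 ratio of -0.16 (-0.24 to -0.07), which was -0.01 without the Rgs13 cluster, where Ltb was 755 in WT. T-like cells had 193 (367 UMIs) and 255 (651 UMIs), a log2 ratio of 0.40 (0.21 to 0.59) and within 1.5-fold. ILC3-like cells, the innate lymphocytes whose lymphotoxin builds lymphoid follicles of the gut, had 164 (34 UMIs) and 337 (164 UMIs), a log2 ratio of 1.03 (0.49 to 1.61), and the highest level of any class in CKO. Transcripts of other cell types were also higher in the CKO ILC3-like cells: the 11 plasma markers summed to 1426 and 8859 (11 of 11 higher), the 12 B markers to 242 and 396 (9 of 12 higher), and Jchain alone was 198 and 2558. Their part in the Ltb value was not tested. ILC2-like cells did not differ by more than the counting interval, at 190.3 (107 UMIs) and 199 (171 UMIs). The intervals of T-like, ILC2-like and ILC3-like levels overlapped in WT, and in CKO those of T-like and B-like cells did. Neutrophil-like cells had 116 (45 UMIs) and 127 (669 UMIs), and plasma-like cells the lowest level, 5.96 (26 UMIs) and 10.1 (79 UMIs), a log2 ratio of 0.76 (0.11 to 1.46) that was -0.20 after thinning. NK-like cells had 3 UMIs in WT and 57 in CKO (21.6 and 45.4), a log2 ratio of 1.07 that changed sign in 5 alternative analyses.

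Within T-like cells the difference in Ltb was uneven. In the cluster led by Lef1, a gene of naive T cells, Ltb was 211 in WT and 428 in CKO, a log2 ratio of 1.02 (0.67 to 1.36). The cluster led by Ikzf2 and Cd7 had 87.0 in WT and 171 in CKO (0.98, interval 0.45 to 1.53), and the CD8 T-like cluster had 189.9 and 295. The CD4 T-like cluster had 291 and 303, a log2 ratio of 0.06. The Lef1 cluster was the largest in WT and the Ikzf2 Cd7 cluster the largest in CKO, and with subsets weighted alike the T-like log2 ratio was 0.62. The difference between clusters was not tested.

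**Figure D4:**
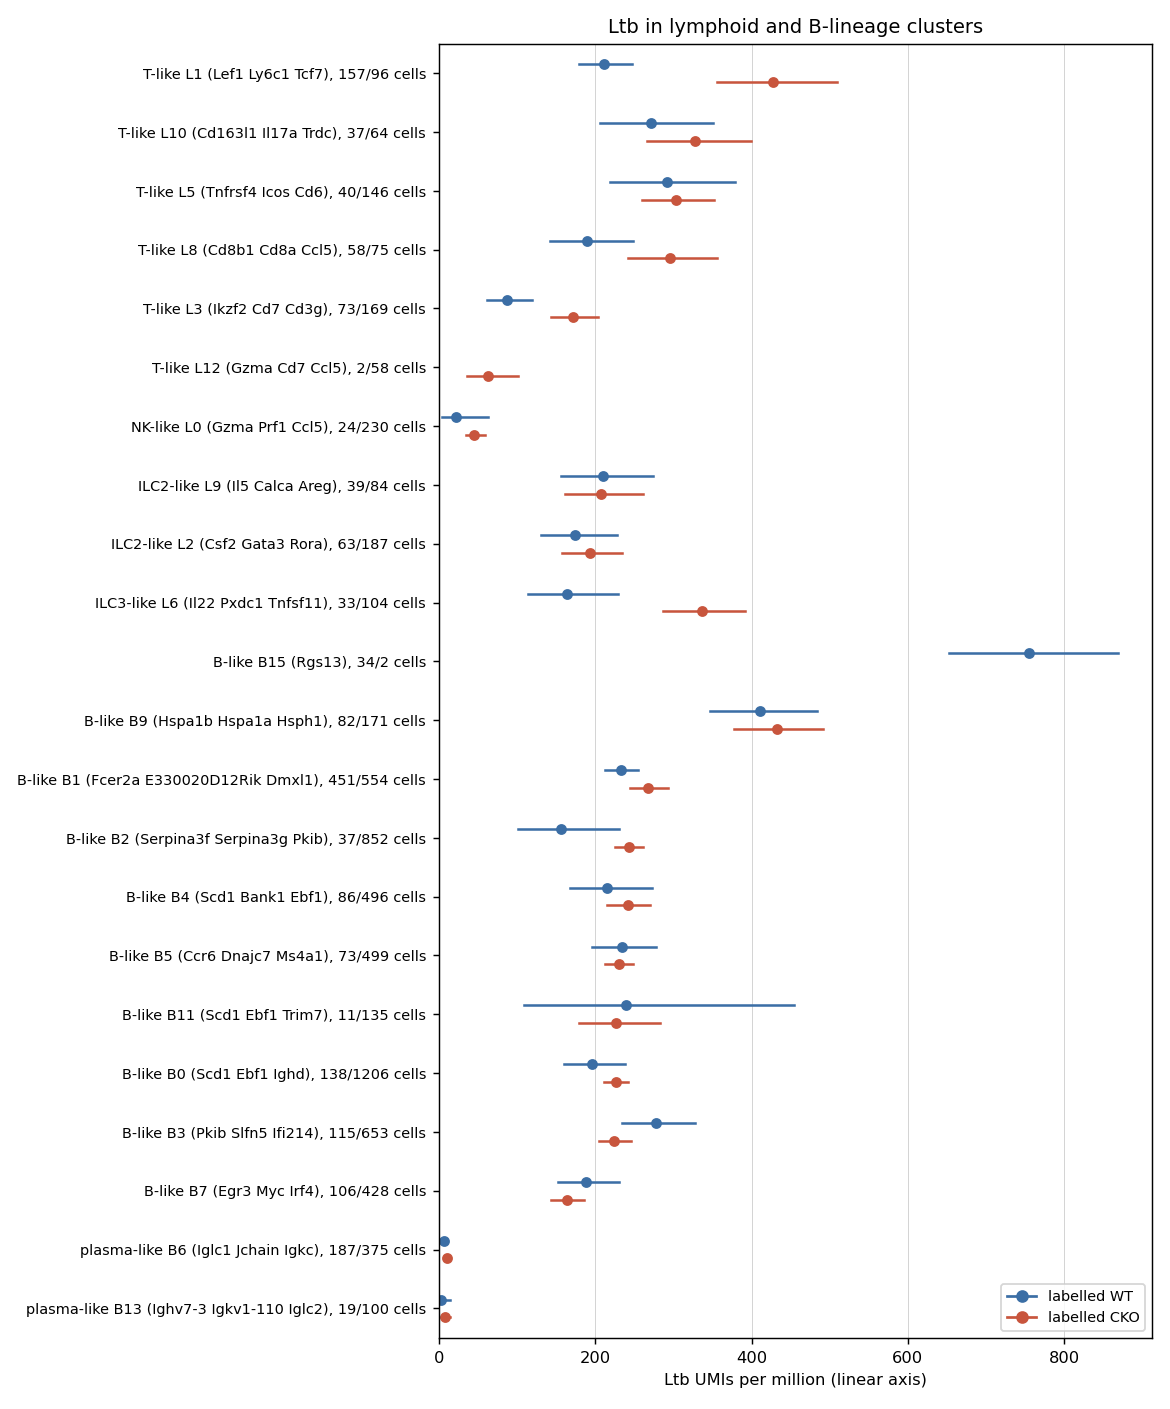
Ltb in CPM of the cluster in each lymphoid and B lineage cluster of a named class with at least 20 cells over both libraries. Mixed and unnamed clusters are not drawn. Lines are exact 95% counting intervals with 1 colour per library (libraries with fewer than 5 cells in a cluster are not drawn). The Lef1 cluster is at 211 in WT and 428 in CKO, while the CD4 T-like cluster is at 291 and 303.

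Among the 9 classes compared, Tnfrsf1a, the gene of TNFR1, was highest in neutrophil-like, monocyte- and macrophage-like and dendritic cell-like cells. T-like and NK-like cells had a lower level, and B lineage and ILC2-like cells nearly lacked it. Neutrophil-like cells had 318 (124 UMIs) in WT and 333 (1752 UMIs) in CKO, a log2 ratio of 0.06 (-0.20 to 0.34). Monocyte- and macrophage-like cells had 154 (31 UMIs) and 182 (1122 UMIs), and dendritic cell-like cells 136 (39 UMIs) and 111 (343 UMIs). T-like cells had 41.1 (78 UMIs) and 45.8 (117 UMIs), a log2 ratio of 0.15 (-0.27 to 0.59), and the level of T-like cells was below that of each of the 3 myeloid classes in both libraries. B-like cells had 1.89 (10 UMIs) and 1.51 (25 UMIs), ILC2-like cells 1.78 (1 UMI) and 6.98 (6 UMIs), and ILC3-like cells 14.5 (3 UMIs) and 14.4 (7 UMIs). Outside the compared classes, fibroblast-like cells had 182 (10 UMIs in 3 cells) and 191 (80 UMIs in 44 cells). Over all retained cells Tnfrsf1a was 26.4 (490 UMIs) in WT and 77.7 (4328 UMIs) in CKO, 2.94-fold higher, while among the 7 classes where its ratio was read it was past 1.5-fold only in plasma-like and NK-like cells. The CD8 T-like cluster had 40.2 (11 UMIs) and 8.13 (3 UMIs), too few to read a ratio. NK-like cells had 86.5 (12 UMIs) and 39.8 (50 UMIs), a log2 ratio of -1.12 (-2.05 to -0.07) that was 0.40 when cells were called by their own markers.

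Tnfrsf1b, the gene of TNFR2, was read in every class. Monocyte- and macrophage-like cells had 539.9 (109 UMIs) in WT and 524 (3224 UMIs) in CKO, and neutrophil-like cells 467 (182 UMIs) and 513 (2701 UMIs), with overlapping intervals between these classes in each library. T-like cells had 229 (434 UMIs) and 267 (682 UMIs), a log2 ratio of 0.22 (0.05 to 0.40), which became -0.17 with subsets weighted alike. Their naive-gene Lef1 cluster had the lowest level of the T-like clusters, 75.3 and 78.7, while the CD4 T-like cluster had 392 and 314 and the Ikzf2 Cd7 cluster 306 and 318. ILC2-like cells had 148 (83 UMIs) and 75.6 (65 UMIs), a log2 ratio of -0.97 (-1.46 to -0.48). Both ILC2-like clusters were lower in CKO, at 113 and 57.9 in one and 189.7 and 102 in the other. The ILC2-like ratio was positive, 0.63, under a stricter cell filter that put another cluster into that class. ILC3-like cells had 246 (51 UMIs) and 168 (82 UMIs), B-like cells 44.8 (237 UMIs) and 55.4 (918 UMIs), and plasma-like cells 8.95 (39 UMIs) and 6.41 (50 UMIs). In neutrophil-like cells the Spp1 Hcar2 cluster had 409 and 751, a log2 ratio of 0.88 (0.48 to 1.29), beside its higher Tnf.

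Ltbr was absent from the T-like counts of both libraries (0 UMIs each, with intervals up to 1.94 CPM in WT and 1.44 in CKO), and B-like cells had 2 UMIs in WT and 5 in CKO. It was read in monocyte- and macrophage-like cells at 34.7 (7 UMIs) and 31.1 (191 UMIs), in dendritic cell-like cells at 27.9 (8 UMIs) and 24.2 (75 UMIs), and in neutrophil-like cells at 7.70 (3 UMIs) and 19.2 (101 UMIs). The last gave a log2 ratio of 1.32 (-0.27 to 3.62). So the ligand pair of Lta and Ltb was read mainly in lymphoid and B lineage cells and its receptor in myeloid and, in the few cells present, epithelial-like and fibroblast-like cells. The small non-immune classes had Ltbr at 93.6 and 58.3 (epithelial-like, 3 and 18 cells) and 54.7 and 81.3 (fibroblast-like, 3 and 44 cells). Of the 58 WT Ltbr UMIs, 11 were in 1 epithelial-like cell.

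Of the adaptors, Tradd was low in all classes and close between libraries. Over all retained cells it was 8.29 (154 UMIs) and 7.99 (445 UMIs), a log2 ratio of -0.05. T-like cells had 8.96 (17 UMIs) and 10.6 (27 UMIs), and B-like cells 6.62 (35 UMIs) and 6.51 (108 UMIs). Dendritic cell-like cells had 17.4 (5 UMIs) and 7.41 (23 UMIs), and the interval of their log2 ratio of -1.23 ran from -2.66 to 0.52. Traf2, the ubiquitin ligase adaptor shared by both TNF receptors, was the one member past 1.5-fold in T-like cells, where 21.1% of all genes read were: 16.9 (32 UMIs) in WT and 29.0 (74 UMIs) in CKO, a log2 ratio of 0.78 (0.16 to 1.43). B-like cells had 14.8 (78 UMIs) and 23.4 (388 UMIs), a log2 ratio of 0.67 (0.31 to 1.04). In the largest WT B-like cluster it was 11.3 and 28.0 (1.31, interval 0.57 to 2.09), and in the largest CKO B-like cluster 16.8 and 22.4. Within T-like cells the Ikzf2 Cd7 cluster had 15.6 and 34.3, and the Lef1 cluster 11.9 and 10.3. Neutrophil-like cells had 0 Traf2 UMIs in WT and 44 in CKO (8.36 CPM), and the exact interval of the log2 ratio began at -0.24, so it included equal levels. Dendritic cell-like cells had 45.3 and 24.8 and ILC3-like cells 48.3 and 30.8, and in both the interval of the ratio included equal levels. A processed pseudogene on the other strand overlaps Traf2. Its sequence was not compared with Traf2, and its part in the Traf2 counts was not tested.

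A ratio was read where a member had at least 20 UMIs over both libraries, and a member counted as past the fold at 1.5-fold, with genes at 0 in 1 library counted as past it among members and all genes alike. In T-like cells 1 of 6 members read was higher (Traf2) and none lower, beside 21.1% of 8705 genes past the fold (13.1% higher and 8.03% lower). B-like cells had 1 of 7 higher (Traf2) and 1 lower (Lta), beside 12.9% of 10682 genes (4.95% higher, 7.96% lower), and plasma-like cells 2 of 5 higher (Ltb and Tnfrsf1a), beside 16% of 8936 (6.45% higher, 9.57% lower). Neutrophil-like cells had 3 of 6 higher (Tnf, Ltbr and Traf2), beside 50% of 6275 genes (23.5% higher, 26.5% lower), and monocyte- and macrophage-like cells 1 of 7 higher (Traf2), beside 47% (27.6% higher, 19.4% lower). In dendritic cell-like cells 1 of 7 was higher (Tnf) and 2 were lower (Tradd and Traf2), beside 39.6% (24.8% higher, 14.8% lower). NK-like cells had 1 of 5 higher (Ltb) and 1 lower (Tnfrsf1a), beside 38.5% (23.9% higher, 14.6% lower). ILC2-like cells had 1 of 4 higher (Traf2) and 1 lower (Tnfrsf1b), beside 23.3% (12.1% higher, 11.2% lower), and ILC3-like cells 3 of 5 higher (Tnf, Lta and Ltb) and 1 lower (Traf2), beside 28.4% (13.6% higher, 14.8% lower). Over all retained cells 4 of 8 were higher and 1 lower, beside 29.8% of genes (17.3% higher, 12.5% lower). The shares of neutrophil-like, T-like, NK-like, dendritic cell-like and monocyte- and macrophage-like cells were near or below the background, so they show nothing about these genes as a group. ILC3-like cells, with 33 cells in the WT library, had 1 member past the fold once the cell with most UMIs of each gene was left out. The share of all genes was not recomputed at that setting.

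**Figure D5:**
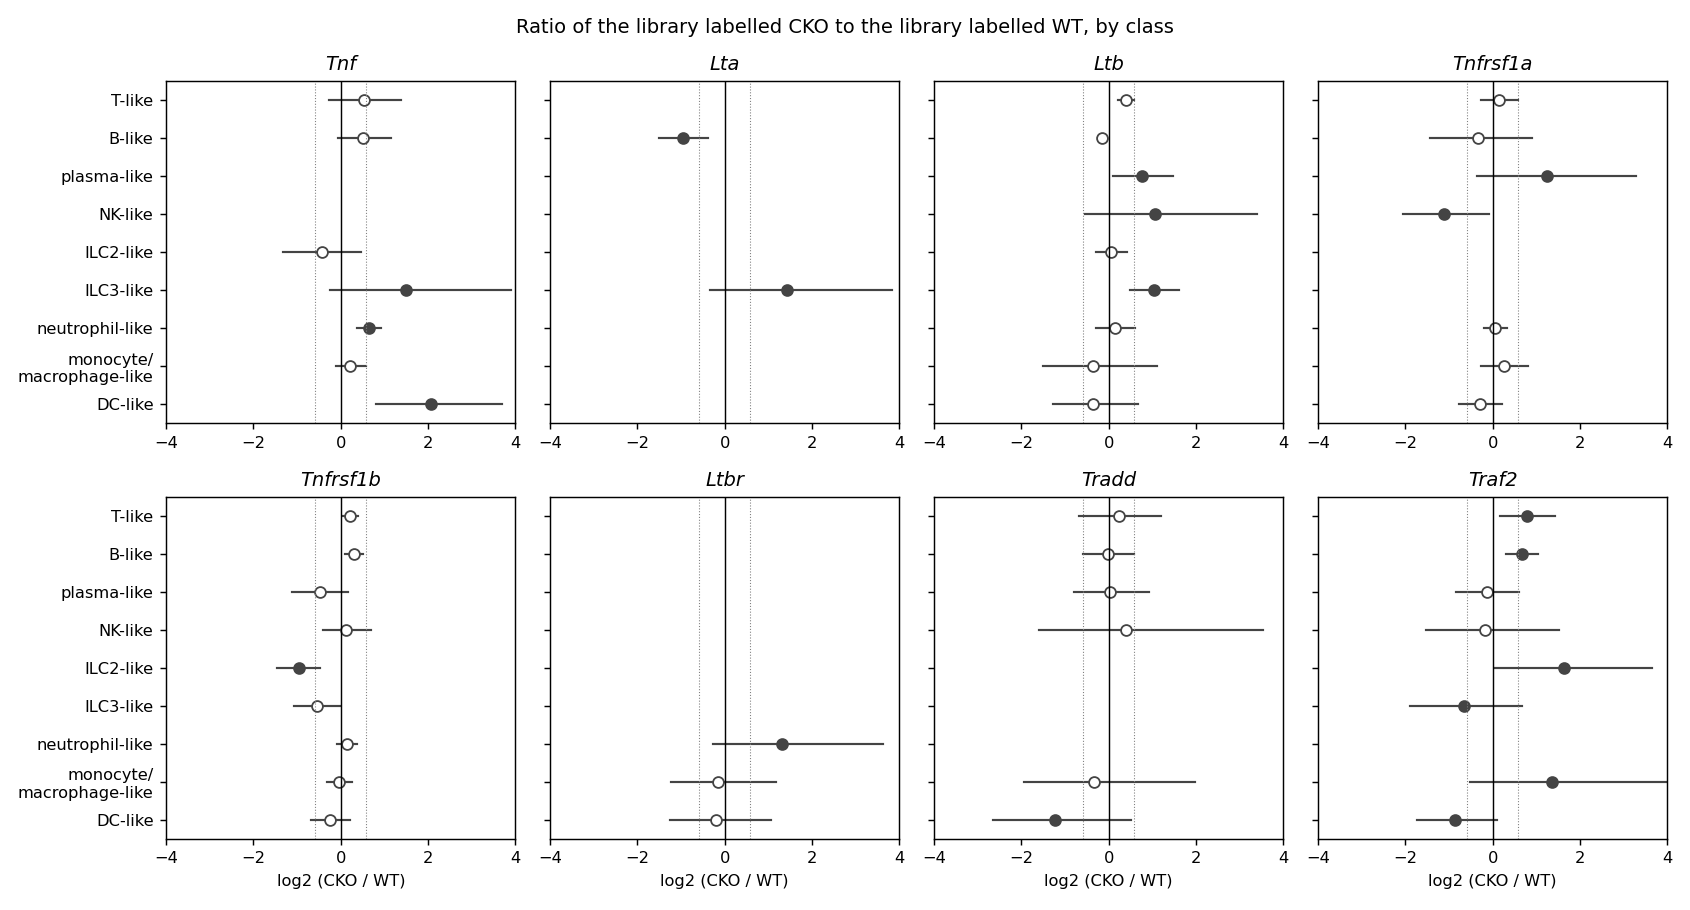
Log2 ratio of each gene, CKO library over WT library, by class, with exact 95% conditional intervals for genes with at least 20 UMIs over both libraries and a count above 0 in each. Filled points are past 1.5-fold (dotted lines), and Tnf is at 0.64 in neutrophil-like and 2.06 in dendritic cell-like cells while Traf2 is at 0.78 in T-like and 0.67 in B-like cells.

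The rest of the pathway was read from lists of genes in T-like, B-like and plasma-like cells, the classes in which neither library had under 200 cells. Of all genes read, 13.1% were higher and 8.03% lower in T-like, 4.95% and 7.96% in B-like, and 6.45% and 9.57% in plasma-like cells. Of the TNF receptor complex and death signalling genes, 3 of 23 read in T-like cells were higher and none lower: Mapkapk2, a kinase that restrains RIPK1, at 64.8 in WT and 109 in CKO (log2 ratio 0.75), Tab2, an adaptor of the TAK1 kinase, at 112 and 186 (0.73), and Ripk3, the necroptosis kinase, at 11.1 and 17.2 (0.64, interval -0.14 to 1.46). Ripk1 was 68.5 and 54.0 and Casp8 87.5 and 71.2, both within the fold. Mlkl, the executor of necroptosis, had 2 UMIs in WT and 16 in CKO, too few to read. B-like cells had 1 of 25 higher, Map3k5 (22.1 and 35.5), and plasma-like cells 3 of 24 lower, among them the deubiquitinase gene Otulin (27.3 and 16.3). These counts are near the shares of all genes in T-like, B-like and plasma-like cells, so they show nothing about the list as a group. Of the noncanonical NF-kB genes, T-like cells had 1 of 7 higher, Traf3 (log2 ratio 0.72), the adaptor that holds this pathway down, and plasma-like cells had 1 lower, Relb (26.4 and 17.2). Of the canonical NF-kB genes, Nfkbie, an NF-kB inhibitor, was the 1 of 7 higher in T-like cells (63.3 and 101), and none was past the fold in B-like or plasma-like cells. None of the 6 genes on the list of chemokines and adhesion genes known to follow lymphotoxin beta receptor signalling had enough UMIs to be read in T-like, B-like or plasma-like cells.

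Genes that govern shedding of TNF or are close partners were 2 of 6 higher and 1 lower in T-like cells, beside 13.1% and 8.03% of all genes. Rhbdf2, which brings the TNF sheddase ADAM17 to the cell surface, was 2.64 (5 UMIs) and 10.2 (26 UMIs), a log2 ratio of 1.95. Tnfsf14, the ligand LIGHT that shares Ltbr, was 6.85 (13 UMIs in 7 cells) and 16.0 (41 UMIs in 28 cells), a log2 ratio of 1.23. The 13 neutrophil markers summed to 85.9 in WT and 268 in CKO T-like cells, and their part in these values was not tested. Timp3, an inhibitor of ADAM17, was 20.03 and 0.391, but all 38 of its WT UMIs were in 1 cell. In B-like cells 1 of 5 was lower, beside 7.96% of all genes: Rhbdf1, at 1.70 (9 UMIs) and 0.844 (14 UMIs).

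Genes known to be induced by TNF were past the fold upward more often than downward in T-like and B-like cells, but not in every T-like cluster. In T-like cells 5 of 15 read were higher and none lower (all genes 13.1% and 8.03%), with a median log2 ratio of 0.44 beside 0.06 over all genes read: Il1b was 22.1 in WT and 74.0 in CKO, Tnfaip2 6.85 and 19.95, and Ptgs2 27.4 and 56.7, with Cxcl2 (43.8 and 85.3) and Icam1 (67.5 and 102) as the others. Among T-like clusters, the Lef1 cluster had 7 of 11 higher and none lower, beside 16.9% and 11.4% of all its genes read. Its list median was 0.76, beside 0.09 over all its genes read. The CD4 cluster had 1 higher and 3 lower of 11, beside 19.1% and 13.2%. Its list median was -0.44, beside 0.06 over all its genes read. In B-like cells 9 of 17 were higher and none lower (all genes 4.95% and 7.96%), median 0.59 beside -0.05, with Il6 (1 and 20 UMIs), Tnfaip2 (2.65 and 13.03) and Cxcl1 (0.757 and 3.56) the most. Plasma-like cells, where 6.45% of all genes were higher and 9.57% lower, had 4 of 14 higher (median 0.01 beside -0.09), such as Cxcl2 (6.88 and 31.4) and Il1b (6.42 and 23.4), and 3 lower, such as Cxcl10 (31.4 and 15.8). Several of these genes are abundant in neutrophil-like cells, where Il1b was 18480 and 18727 CPM, Cxcl2 42469 and 37139, and Tnfaip2 4311 and 3652. The summed level of the 13 neutrophil markers was 85.9 in WT and 268 in CKO T-like cells, 74.0 and 298 in B-like cells, and 19.3 and 113 in plasma-like cells, and its part in these list values was not tested. In neutrophil-like cells, with 182 cells in WT, none of 17 read was higher and 5 were lower, beside 23.5% of all genes higher and 26.5% lower. Monocyte- and macrophage-like cells, with 22 cells in WT, had 2 of 20 higher and 1 lower, beside 27.6% and 19.4%. Dendritic cell-like cells, with 27 cells in WT, had 8 of 17 higher and 1 lower, beside 24.8% and 14.8%. There the neutrophil markers summed to 1683 and 3743, and their part was not tested.

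Across the 18 pairs of class and library, the genes whose level moved most like each member were named by Pearson r of log2(CPM + 10), a description over points that share libraries and cells. For Tnf these were Plin2, Alas1 and Atp11a (r = 0.95 each), and for Tnfrsf1a S100a11 (0.95), Slc16a3 (0.94) and Sra1 (0.94). Tnfrsf1b was nearest to Tax1bp1 (0.96), Nab1 (0.95) and Rhog (0.95), and Ltbr to Cxcl9 (0.96), Itga5 (0.95) and Bach1 (0.94). Ltb was nearest to Clk1 (0.91), Ing3 (0.90) and Zfp869 (0.89), Lta to genes that include Pxdc1 and Asphd2 (0.88 each), Traf2 to Wasf2 (0.91), Ap2m1 (0.90) and Mcrip1 (0.89), and Tradd to Mob1b (0.84), Cox7a2 (0.83) and Wapl (0.82). Among the members, the neighbours on chromosome 17 did not share one pattern: r was 0.63 for Lta with Ltb, -0.18 for Tnf with Lta and 0.03 for Tnf with Ltb. Every r value of Lta rests on few UMIs. Its level was at most 14.5 CPM outside the CKO ILC3-like cells (39.0, from 19 UMIs), near the 10 added to each value. The TNF receptor genes had r = 0.79 with each other.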

How the data were processed

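Immune cells of mouse colon were measured in 1 library labelled WT and 1 labelled CKO with the 10x 3′ v3.1 chemistry, per the labels' protocols. The authors deposited matrices of raw UMI counts, integers with no scaling. Per the file headers these were written by Cell Ranger 6.0.1, whereas Cell Ranger 5.0.0, Seurat 3.2.3 and the build mm10 are listed in the submitters' processing notes. The step that called cells from barcodes is not stated.

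Barcodes were left out that had under 200 genes or over 20% mitochondrial UMIs, and Scrublet marked 1 (WT) and 213 (CKO) doublets, below the expected 2.34 and 8.92%, so doublets remain. Both libraries were clustered together (Python 3.11.15, scanpy 1.11.5, leidenalg 0.10.2; 2000 variable genes and 30 components, then 1500 and 20 within compartments; 15 neighbours; resolution 1) with the 8 genes left out of the variable genes. Clusters were named from marker genes; those with genes of 2 lineages were kept apart as mixed, by a rule chosen after the clusters were seen, and 2 B-like clusters, 1 of them a single cell, had none of their own markers among their 10 leading genes. The largest T-like, B-like and neutrophil-like clusters differed between the libraries.

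Counts were summed per library and class over the class total, with exact Poisson, binomial and conditional 95% intervals (scipy 1.17.1) and thinning to 1000 UMIs for shares. All 8 members were named, and from each list up to 3 genes past the fold in each direction. Ripk1, Casp8, Mlkl, Cxcl2 and Icam1 in T-like cells were named after their values were seen. The levels in neutrophil-like cells and the list counts of the myeloid classes were also given after their values were seen. The members and lists were chosen with earlier results of these data known. A gene that the likeness rule also named is not reported here. Code was tested on simulated counts. PCR duplicates are collapsed by UMI, and intervals cover counting error only.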

Additional observations from a re-analysis of the deposited data

Results flagged for a closer look

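These genes were past 1.5-fold in opposite directions in different cell classes (log2 ratios, CKO over WT). The difference between classes was not tested, and each value rests on 1 library per label. Lta was lower in CKO in B-like cells (-0.95) and higher in ILC3-like cells (1.43, from 3 WT and 19 CKO UMIs). Tnfrsf1a was higher in plasma-like cells (1.25, from 4 and 17 UMIs) and lower in NK-like cells (-1.12). Traf2 was higher in T-like (0.78), B-like (0.67), ILC2-like (1.64) and monocyte- and macrophage-like cells (1.37, from 2 WT UMIs), and lower in ILC3-like (-0.65) and dendritic cell-like cells (-0.87). Of these, the intervals of Lta in B-like cells, Tnfrsf1a in NK-like cells and Traf2 in T-like, B-like and ILC2-like cells did not include equal levels.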

How the results depend on the processing

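No paired analysis was possible because each label has 1 library. Of 527 recomputed log2 ratios of a member in a class, 474 stayed within the counting interval, 38 moved outside it and 15 changed sign. Calling each cell by its own markers gave Ltb -1.17 and Tnfrsf1a -0.27 in plasma-like, Ltb -0.62 and Tnfrsf1a 0.40 in NK-like, Tnfrsf1b 0.24 in ILC2-like, Traf2 0.56 and Ltb 0.18 in ILC3-like, Traf2 0.20 in dendritic cell-like, Tnf 1.72 and Tnfrsf1b 0.45 in T-like and Tnf 1.27 in monocyte- and macrophage-like cells. Thinning to 1000 UMIs gave Ltb -0.20 in plasma-like, Lta -0.015, Traf2 0.40 and Ltb 1.82 in ILC3-like, Tnfrsf1a 1.11 in T-like and Tnf 1.08 in neutrophil-like cells. A filter of 500 genes and 10% mitochondrial UMIs gave Ltb -0.72 in NK-like and Tnfrsf1b 0.63 in ILC2-like cells. In NK-like cells, Ltb was -0.45 with doublets kept, -0.75 with the 8 genes among the variable genes and -0.75 at resolution 2. Weighting T-like subsets alike gave Ltb 0.62 and Tnfrsf1b -0.17. For Tnf in neutrophil-like cells, a mean over cells gave 1.03 and clusters weighted alike, an alternative added after seeing the data, 0.96; without the leading cells Tnf was 1.43 in monocyte- and macrophage-like cells. The omission of the Rgs13 cluster was also added after seeing the data.

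The share of all genes past the fold was not recomputed under the alternatives. The counts of members below therefore cannot be set against a background. Members past the fold in T-like cells were 1, but 4 by own markers and 0 at 2-fold. In B-like cells there were 2, but 0 at 2-fold. Plasma-like cells had 2, but 1 without the leading cells, as a mean over cells, at 2-fold or with at least 50 UMIs, and 0 thinned. NK-like cells had 2, but 1 with doublets kept or thinned. In ILC2-like cells there were 2, but 6 under the stricter filter, which put a cluster of 82 cells into the class, and 1 without the leading cells, at 2-fold or with at least 50 UMIs. ILC3-like cells had 4, but 1 without the leading cells, thinned or with at least 50 UMIs. Monocyte- and macrophage-like cells had 1, but 2 under the stricter filter, with doublets kept, without the leading cells or as a mean over cells, 3 by own markers or thinned, and 0 with the 8 genes among the variable genes or at resolution 2. Dendritic cell-like cells had 3, but 5 as a mean over cells. The cause was not tested. Scaling to the median gene moved no class by over 0.1. Depth limits Tnf, Lta, Ltbr and Tradd in lymphoid classes, where many counts are under 20 UMIs.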

Other observations

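Cells outside the 9 compared classes carried the same genes at levels resting on few cells. Mast-like cells had Tnf at 43.9 CPM in WT (9 cells, 3 UMIs) and 83.2 in CKO (55 cells, 22 UMIs). Fibroblast-like cells had no Tnf or Lta UMI in either library, while their Tnfrsf1a was 182 (3 cells) and 191 (44 cells). Clusters with genes of 2 lineages held 137 WT and 551 CKO cells, with Tnf at 48.1 and 226, Tnfrsf1a at 61.4 and 114 and Tnfrsf1b at 173 and 347. An unnamed lymphoid cluster led by Ifng and Xcl1 had Ltb at 294 in WT and 135 in CKO, a log2 ratio of -1.12, the reverse of the Lef1 T-like cluster. The single cells with most Ltb in each library, 46 of 2863 UMIs in WT and 31 of 7301 in CKO, were in an unnamed proliferating cluster led by Pclaf. No explanation of these values was tested.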
